A study of Mus musculus with 12 samples.

Results

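Blockade of interleukin 35 (IL-35) on its own was set against control IgG in natural killer (NK) cells sorted from mouse pancreatic tumours, in 3 libraries from mice given an anti-IL-35 antibody and 3 libraries from mice given IgG. These 6 of the 12 libraries in all were chosen by their labels alone and not by any measured value. The anti-IL-35 mice received 200 µg of antibody intraperitoneally 3 times, from day 8 after tumour cell injection and then every 3 days, and no cGAMP. The IgG mice received neither the anti-IL-35 antibody nor cGAMP. The other 6 libraries came from mice given cGAMP (10 µg intravenously, 4 times from day 8, every 3 days) or the combination of cGAMP and anti-IL-35, and were used here for the estimate of spread and to see where anti-IL-35 alone stood apart. All mice had the genotype WT, all carried pancreatic tumours, and NK cells were sorted on day 21. The sources used here give no strain, age, tumour line, antibody clone or sort gate. Nor do the labels tie the 3 libraries of a group to separate mice, so p-values cover the spread among libraries alone, and this may be technical.

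IL-35 is a secreted heterodimer of Ebi3 and the p35 chain encoded by Il12a. It is best known as a product of regulatory T cells and regulatory B cells and as a suppressor of immune responses, also in pancreatic tumours. It belongs to the IL-12 family, whose members share chains: Ebi3 also forms IL-27, and p35 also forms IL-12, a strong activator of NK cells. Its described receptor chains are IL-12Rβ2 and gp130 (gene Il6st), which signal through Janus kinases to STAT proteins, STAT4 among them. NK cells, a class of innate lymphocyte, release perforin and granzymes onto their targets and secrete interferon-γ.

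Read totals were 19239582, 22217766 and 19753682 in the anti-IL-35 libraries, against 14383401, 15846724 and 16305303 in the IgG libraries. Levels below are CPM (read counts divided by the TMM-scaled library size), and a difference is the log2 fold change of anti-IL-35 over IgG with its standard error, from edgeR's quasi-likelihood fit with Benjamini-Hochberg adjustment. A gene was called at an adjusted p under 0.05. Of 14182 genes tested, 3542 were called (25.0%), 2220 higher (15.7%) and 1322 lower (9.32%). Most calls were small: 1180 of the higher genes (53.2%) and 739 of the lower genes (55.9%) differed by less than 0.5 on the log2 scale. Calls of at least 2-fold numbered 467 higher (3.29%) and 181 lower (1.28%). Called or not, 2968 genes (20.9%) were higher in every anti-IL-35 library than in every IgG library, and 2659 (18.7%) were lower. A lack of overlap was thus common. The split of calls depended on scaling, since library totals alone gave 1472 higher and 3125 lower, and moved the median log2 difference of all genes to -0.15, against -0.02 with TMM. Over the 500 most variable genes the root mean square log2 distance was 1.47 to 1.55 between an anti-IL-35 and an IgG library, against 0.303 to 0.462 within anti-IL-35 and 0.311 to 0.338 within IgG.

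The labels name sorted NK cells, but transcripts of other cell types were abundant in both groups. Their part of the RNA differed between anti-IL-35 and IgG. The 10 NK lineage markers (Ncr1, Klrb1c, Klre1, Klrd1, Klrk1, Eomes, Prf1, Gzma, Nkg7 and Klra8) all passed the count filter and summed to 5464 to 5869 CPM with anti-IL-35 and 5568 to 5656 CPM with IgG. Neutrophil markers summed to 23720.0 to 24920.0 CPM with anti-IL-35 and 5634 to 5850.0 CPM with IgG. All 20 of 20 were called higher (all genes: 15.7%), and all 20 were higher with no overlap between the libraries (all genes: 20.9%). B and plasma cell markers went the other way, at 7213 to 7342 CPM with anti-IL-35 and 15910.0 to 16270.0 CPM with IgG, with 20 of 21 called lower (all genes: 9.32%). B and plasma cell sums lay above the NK lineage sums in both groups, so the values below are those of mixed RNA. In bulk RNA, fewer cells of a type and less RNA per cell cannot be told apart.

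**Figure D1:**
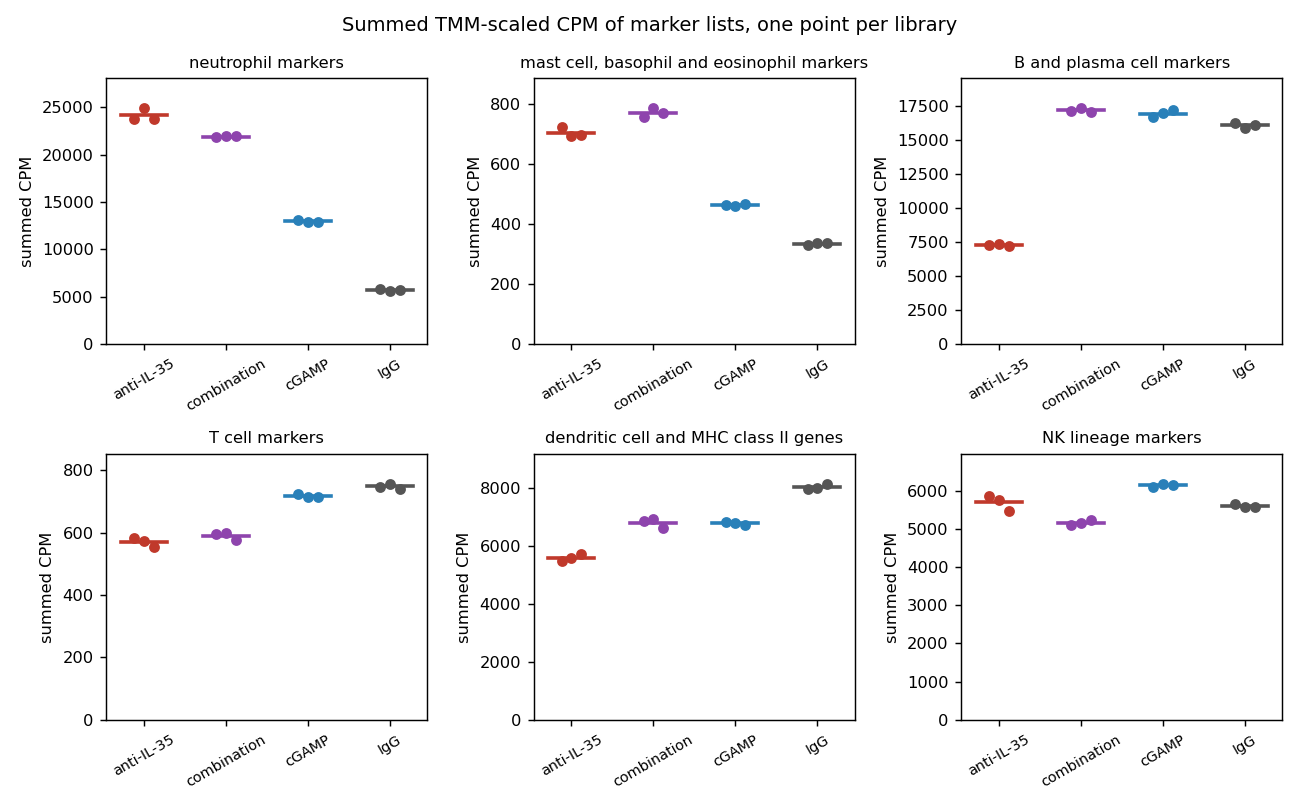
Summed TMM-scaled CPM (linear axes from 0) of 6 marker lists in each of the 12 libraries, grouped as anti-IL-35, combination, cGAMP and IgG, with a line at the mean of 3. Neutrophil sums and mast cell, basophil and eosinophil sums are higher in every anti-IL-35 library than in every IgG library, B, T and dendritic cell sums are lower, and NK lineage sums overlap.

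The neutrophil markers covered successive stages of granule formation, and the early and late ones were higher alike. Among genes of primary granules, which are made in bone marrow precursors, Mpo (myeloperoxidase) stood at 281, 297 and 312 CPM in the anti-IL-35 libraries, against 63.4, 51.7 and 56.9 CPM in the IgG libraries. This was a difference of 2.37 ± 0.06 (adjusted p = 1.29e-33). The secondary granule gene Ltf (lactoferrin) differed by 2.24 ± 0.04 and Ngp (neutrophilic granule protein) by 2.10 ± 0.03, and the tertiary granule protease Mmp9 by 2.26 ± 0.04. Lcn2, which sequesters bacterial iron carriers, differed by 2.20 ± 0.04. Across the 20 markers the difference ran from 1.32 (Chil3, also made by macrophages) to 2.37 (Mpo), so that markers of precursors and of mature cells lay within a span of about 1 log2 unit.

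Basophil genes rose together with the neutrophil genes, and the eosinophil genes Prg2, Epx and Ccr3 did not. Of 13 mast cell, basophil and eosinophil markers tested, 9 were called higher and 3 lower (all genes: 15.7% and 9.32%). The list summed to 692 to 722 CPM with anti-IL-35 and 329 to 338 CPM with IgG. Mcpt8, a basophil protease, stood at 32.6, 29.6 and 21.8 CPM in the anti-IL-35 libraries, against 14.7, 15.1 and 15.8 CPM in the IgG libraries. Prss34, another basophil protease, differed by 1.12 ± 0.10 (adjusted p = 8.49e-14), and Gata2, a transcription factor of the basophil and mast cell lineage, by 1.34 ± 0.19 (adjusted p = 8.13e-08). Hdc, which makes histamine and is also expressed by neutrophils, differed by 2.32 ± 0.05, and Siglecf, an eosinophil lectin also found on some tumour neutrophils, by 1.84 ± 0.14. The eosinophil granule gene Prg2 missed the test (28.6 against 24.7 CPM). The eosinophil genes Epx and Ccr3 and the progenitor gene Kit, picked after their values were seen, were called lower, with differences for Epx of -0.64 ± 0.20, for Ccr3 of -0.56 ± 0.08 and for Kit of -0.31 ± 0.07. The tissue mast cell genes Mcpt4, Tpsb2 and Tpsab1 did not pass the count filter.

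T cell and dendritic cell markers were lower in sum and in most members, while macrophage markers were lower in most members but not in sum. Of 18 T cell markers, 11 were called lower and 0 higher (all genes: 9.32% and 15.7%). They summed to 553 to 581 CPM with anti-IL-35 and 741 to 757 CPM with IgG. Cd4, the coreceptor of helper and regulatory T cells, stood at 23.5, 22.4 and 23.6 CPM in the anti-IL-35 libraries, against 39.9, 41.7 and 40.2 CPM in the IgG libraries. It differed by -0.81 ± 0.10 (adjusted p = 7.89e-09). Foxp3, the factor that defines regulatory T cells, had 1.85, 4.09 and 3.17 CPM with anti-IL-35, against 4.87, 5.55 and 4.97 CPM with IgG, and this difference of -0.75 ± 0.30 missed the test (adjusted p = 0.0608). Of 21 macrophage and monocyte markers, 15 were called lower and 3 higher (all genes: 9.32% and 15.7%). Their sum overlapped between the groups, at 6743 to 6781 CPM with anti-IL-35 and 6725 to 6808 CPM with IgG. Arg1, an arginase of suppressive macrophages, fell to 19.6, 19.9 and 18.6 CPM in the anti-IL-35 libraries, against 55.9, 58.5 and 56.5 CPM in the IgG libraries. Its difference was -1.56 ± 0.11 (adjusted p = 1.64e-16). The 3 that rose were Lyz2 (0.36), Cd14 (0.80) and, named after its value was seen, Ly6c2 (0.14), of which Lyz2 and Cd14 are also expressed by neutrophils. Of 20 dendritic cell and MHC class II genes, 12 were called lower and 0 higher (all genes: 9.32% and 15.7%). The class II chains H2-Aa (-0.61), H2-Ab1 (-0.61) and H2-Eb1 (-0.60) lay close together. B cells, macrophages and dendritic cells all express class II genes, and the part of each was not tested.

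Epithelial, endothelial, acinar and islet transcripts were scarce in both groups, while the fibroblast list summed to 1121 to 1291 CPM with anti-IL-35 and 1547 to 1599 CPM with IgG, most of it from Fn1, which macrophages also make. Of 13 fibroblast markers, Dcn, Lum, Pdgfra and Fap did not pass the count filter, Acta2 was called higher (6.84 against 2.53 CPM) and Fn1 lower (1002 against 1363 CPM). Of the tumour and ductal epithelial markers Cdh1 and Krt7 were called higher, at 12.2 against 5.96 CPM and 4.69 against 2.09 CPM. The Krt7 call was lost without IgG replicate 1 (adjusted p = 0.0872) and without anti-IL-35 replicate 2 (adjusted p = 0.0551). Among 17 acinar and islet markers 11 did not pass the count filter, the hormone genes Ins1, Ins2, Gcg and Sst among them. Of the other 6 only Cela1, an elastase, was called, lower at 7.88 against 11.9 CPM, and this call was lost without anti-IL-35 replicate 3 (adjusted p = 0.0629). Of 7 endothelial markers tested only Pecam1, an adhesion molecule of endothelial cells that leukocytes also carry, was called, lower at 81.7 against 107 CPM. Of 9 fibroblast markers tested 1 was called higher and 1 lower, and of 10 epithelial markers tested 2 were called higher. Among all genes 15.7% were called higher and 9.32% lower. With so few members tested, the calls in these lists cannot show that any list differed from all genes. Globin transcripts were slightly higher: Hba-a1, Hba-a2 and Hbb-b1 differed by 0.35, 0.30 and 0.32. The near-identical globin copies may share reads, and their individual values are uncertain.

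The chains of the targeted cytokine itself moved in opposite directions. Ebi3 (chromosome 17, 55952623 to 55957022, mm10) stood at 19.7, 20.8 and 24.4 CPM in the anti-IL-35 libraries, against 10.8, 7.497 and 9.89 CPM in the IgG libraries. Every anti-IL-35 library was above every IgG library, with a difference of 1.21 ± 0.16 (adjusted p = 1.60e-08). Il12a (chromosome 3, 68690644 to 68698550) stood at 0.318, 0.872 and 0.415 CPM in the anti-IL-35 libraries, against 2.08, 2.42 and 2.74 CPM in the IgG libraries. These levels rested on only 33 reads over the 3 anti-IL-35 libraries and 121 reads over the 3 IgG libraries, the groups did not overlap, and the difference was -2.14 ± 0.56 (adjusted p = 0.00283).

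The partner chains of the sister cytokines did not pass the test. Il12b, the p40 chain that pairs with p35 in IL-12, had 0.953, 1.102 and 1.97 CPM with anti-IL-35, against 1.04, 0.827 and 0.915 CPM with IgG. Il27, the p28 chain that pairs with Ebi3, had 3.34, 2.11 and 1.66 CPM with anti-IL-35, against 2.402, 2.36 and 1.72 CPM with IgG. Both sets of libraries overlapped, and Il23a had 1 read in each group and did not pass the count filter. Ebi3 averaged 21.6 CPM with anti-IL-35, 19.4 CPM with the combination, 16.5 CPM with cGAMP and 9.39 CPM with IgG. Neither Ebi3 nor Il12a was called against cGAMP or against the combination. With anti-IL-35 the neutrophil marker sum, given above, was higher and the B cell and dendritic cell sums were lower. Their part in the Ebi3 and Il12a values was not tested.

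Receptor chains changed little. Il12rb2, the chain that IL-12 and IL-35 share, had 105, 99.7 and 101 CPM with anti-IL-35, against 83.7, 101 and 91.98 CPM with IgG. The groups overlapped and the difference of 0.15 ± 0.07 was not called, though it was without IgG replicate 2 (adjusted p = 0.0370). Il12rb1 had 35.6, 29.02 and 29.2 CPM with anti-IL-35, against 31.8, 30.9 and 34.6 CPM with IgG and also overlapped. Il6st, which encodes gp130, stood at 50.95, 49.2 and 53.6 CPM in the anti-IL-35 libraries, against 62.3, 61.1 and 62.999 CPM in the IgG libraries. It was lower in every anti-IL-35 library, by -0.28 ± 0.08 (adjusted p = 0.00809). Il27ra, the IL-27 receptor, also fell, at 61.1 ± 4.09 CPM with anti-IL-35 and 71.98 ± 2.799 CPM with IgG, by -0.24 ± 0.08 (adjusted p = 0.0173). That call was lost without IgG replicate 1 (adjusted p = 0.0992) and without anti-IL-35 replicate 2 (adjusted p = 0.0800). Il23r had 5 reads with anti-IL-35 and 0 with IgG and was not tested. Of the 8 tested members of the family, 1 was thus called higher and 3 lower (all genes: 15.7% and 9.32%). Their median difference was 0.04 against -0.02 for all genes.

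Among the signalling genes downstream, 7 of 18 were called higher and 3 lower, against 15.7% and 9.32% of all genes. The clearest was Socs3 (chromosome 11, 117966079 to 117970336), a feedback inhibitor that binds gp130 and is induced by STAT3, which stood at 355, 349 and 399 CPM in the anti-IL-35 libraries, against 111, 110.2 and 116 CPM in the IgG libraries. The groups lay far apart, with a difference of 1.71 ± 0.05 (adjusted p = 2.94e-30). Stat3 itself differed by 0.46 ± 0.04 (adjusted p = 5.30e-12), Stat5b by 0.47 ± 0.05 and Stat6 by 0.41 ± 0.05. Stat4, a transducer described for IL-35, did not pass the test, at 189 ± 5.21 CPM with anti-IL-35 and 178 ± 3.67 CPM with IgG. Tyk2, the kinase bound by IL-12 receptors, did not pass either (-0.09). The phosphatase gene Ptpn6, an inhibitor in NK and myeloid cells, rose by 0.30 ± 0.04. Of the feedback genes that fell, Socs1, Socs2 and Ptpn2, which were picked after their values were seen, the differences were -0.44, -0.59 and -0.25, and only 1 lower call of the list was left without IgG replicate 1, IgG replicate 2 or anti-IL-35 replicate 3. Socs3, Stat3 and Ptpn6 are also expressed by neutrophils, and the part of the neutrophil rise in them was not tested.

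**Figure D2:**
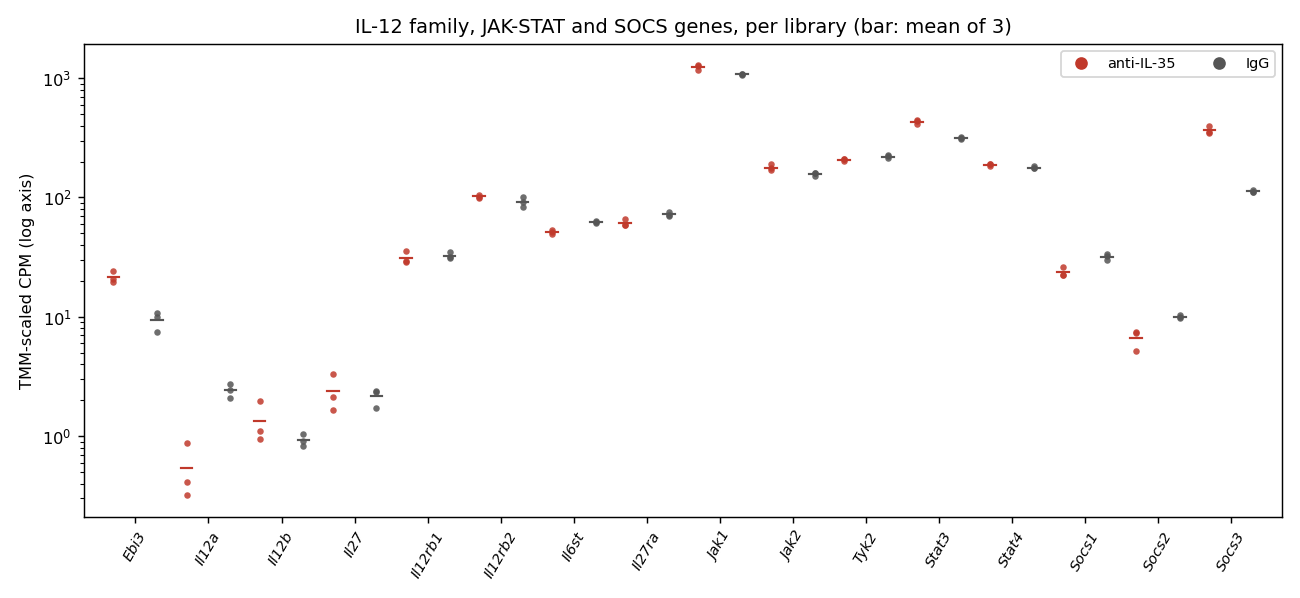
TMM-scaled CPM (log axis) of IL-12 family, JAK-STAT and SOCS genes in each anti-IL-35 library (left of each pair) and each IgG library (right), with a bar at the mean of 3. Ebi3 and Socs3 are higher and Il12a lower in every anti-IL-35 library, while the points of Stat4 lie within a narrow band.

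The killing machinery of NK cells was close to the same level in both groups. Gzma (granzyme A) stood at 1856, 1895 and 1658 CPM in the anti-IL-35 libraries, against 1843, 1838 and 1795 CPM in the IgG libraries. Gzmb (granzyme B) stood at 308, 297 and 296 CPM in the anti-IL-35 libraries, against 310.1, 323 and 310.5 CPM in the IgG libraries. Neither passed the test, at -0.02 ± 0.04 and -0.07 ± 0.04. Prf1 (perforin, which forms the pore for granzyme entry) was 698 ± 32.8 CPM with anti-IL-35 and 639 ± 2.12 CPM with IgG, called higher at 0.13 ± 0.04 (adjusted p = 0.0114). That call was lost without anti-IL-35 replicate 1 (adjusted p = 0.164), and with library totals alone the difference was -0.0016 (adjusted p = 0.982).

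Cytotoxic granule and death ligand genes were called in both directions. Of 19 cytotoxic granule and death ligand genes tested, 5 were called higher and 3 lower (26.3% and 15.8%, against 15.7% and 9.32% of all genes), with a median of -0.07. Rab27a, a GTPase that docks granules at the membrane, stood at 169, 181 and 199.7 CPM in the anti-IL-35 libraries, against 108, 106 and 109.8 CPM in the IgG libraries. Stx11, a syntaxin needed for granule fusion, stood at 103, 106 and 98.9 CPM in the anti-IL-35 libraries, against 67.01, 63.1 and 64.03 CPM in the IgG libraries. These were differences of 0.76 ± 0.06 (adjusted p = 2.19e-15) and 0.66 ± 0.07 (adjusted p = 5.28e-11). Srgn (serglycin, the proteoglycan core of granules) differed by 0.77 ± 0.04 and Stxbp2, the partner of Stx11, by 0.30 ± 0.06. These transport genes also act in neutrophil granule release, and the part of the neutrophil rise in them was not tested. Ctsc, the protease that activates granzymes, fell by 0.42 ± 0.04 (adjusted p = 4.78e-11). Tnfsf10 (TRAIL, a death ligand) fell to 19.3, 22.9 and 23.1 CPM in the anti-IL-35 libraries, against 31.2, 32.3 and 29.4 CPM in the IgG libraries. The log2 difference was -0.51 ± 0.11, whereas Fasl, another death ligand, had 42.6 against 50.3 CPM and missed the test (adjusted p = 0.0585). Without anti-IL-35 replicate 1 the list had 5 lower calls.

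Cytokine genes on the NK list were called in both directions. Ifng (interferon-γ) stood at 21.6, 22.8 and 21.9 CPM in the anti-IL-35 libraries, against 22.2, 24.1 and 21.2 CPM in the IgG libraries. The groups overlapped, with a difference of -0.03 ± 0.12 (adjusted p = 0.911). Ccl5, the most abundant chemokine of the list by CPM, also overlapped, at 1563 ± 71.4 CPM with anti-IL-35 and 1493 ± 44.4 CPM with IgG. Xcl1, the chemokine that draws cross-presenting dendritic cells, fell to 43.4, 48.2 and 46.5 CPM in the anti-IL-35 libraries, against 68.9, 71.5 and 69.2 CPM in the IgG libraries. It differed by -0.60 ± 0.08 (adjusted p = 2.95e-08), and Ccl4, a chemokine for lymphocytes and monocytes, by -0.45 ± 0.10 (adjusted p = 0.000482). On the higher side Csf1, the macrophage growth factor, stood at 148, 156 and 166 CPM in the anti-IL-35 libraries, against 49.2, 47.9 and 51.3 CPM in the IgG libraries. Its difference of 1.66 ± 0.07 (adjusted p = 9.92e-26) was the largest of the list, followed by Tnfsf14 (LIGHT) at 0.86 ± 0.07 and Il16 at 0.28 ± 0.04. Neutrophil marker sums, given above, were higher in the same libraries, and their part in these rises was not tested. Csf2 (GM-CSF) had 38 reads with anti-IL-35 and 83 with IgG and missed the test at -1.40 ± 0.65, although DESeq2 called it (adjusted p = 0.0366). Altogether 3 of 15 tested members were higher and 3 lower, against 15.7% and 9.32% of all genes, and without IgG replicate 2 only 2 were lower.

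Activating receptors and adaptors were called in both directions. Of 26 genes 6 were called higher and 5 lower (23.1% and 19.2%, against 15.7% and 9.32% of all genes), with a median of -0.04. Klrk1 (NKG2D) stood at 607, 569 and 504 CPM in the anti-IL-35 libraries, against 554, 551 and 544 CPM in the IgG libraries. Klrb1c (NK1.1) stood at 631, 593 and 601 CPM in the anti-IL-35 libraries, against 575, 566 and 568 CPM in the IgG libraries. Neither was called, at 0.03 ± 0.05 and 0.09 ± 0.04. Ncr1 (NKp46) was 385 ± 15.3 CPM with anti-IL-35 and 419 ± 13.1 CPM with IgG, a difference of -0.12 ± 0.04 (adjusted p = 0.0425), and Klrd1 (CD94) differed by -0.17 ± 0.06 (adjusted p = 0.0208). The Ncr1 call was lost without IgG replicate 1 or 3 and without anti-IL-35 replicate 2 or 3 (adjusted p = 0.0808 to 0.213), and the Klrd1 call without IgG replicate 3 and without anti-IL-35 replicate 3 (adjusted p = 0.126 and 0.228).

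Of the 6 higher calls on this list, Fcgr3 had the largest difference. Fcgr3 (CD16, the antibody receptor) stood at 308, 302 and 289.6 CPM in the anti-IL-35 libraries, against 164, 162 and 174 CPM in the IgG libraries. It differed by 0.85 ± 0.05 (adjusted p = 4.13e-19). The adaptors Tyrobp (DAP12) and Fcer1g and the kinase Syk, which pass on signals of NK, neutrophil and basophil receptors, differed by 0.42 ± 0.04, 0.37 ± 0.05 and 0.48 ± 0.04. Zap70, the related kinase of T and NK cells, had a difference of -0.11 ± 0.06 and missed the test. Cd244a, a SLAM family receptor, rose by 0.27 ± 0.06, and Cd2, an adhesion receptor of T and NK cells named after its value was seen, by 0.19 ± 0.06. Fcgr3, Tyrobp, Fcer1g and Syk are also expressed by neutrophils, and the part of the neutrophil rise in them was not tested. The number of lower calls was 3 without IgG replicate 1, without anti-IL-35 replicate 2 or without anti-IL-35 replicate 3, 2 without IgG replicate 3, and 13 with library totals alone.

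Among checkpoint genes, Lag3, Pdcd1 and Tigit were called lower, the last 2 of them not in every setting. Lag3, which binds class II, stood at 23.5, 25.02 and 23.5 CPM in the anti-IL-35 libraries, against 37.1, 34.3 and 36.8 CPM in the IgG libraries. It fell by 0.59 ± 0.10 (adjusted p = 9.32e-06). Pdcd1 (PD-1) had 3.496, 3.54 and 2.6997 CPM with anti-IL-35, against 7.47, 5.25 and 5.37 CPM with IgG and differed by -0.89 ± 0.27 (adjusted p = 0.0118), a call that was lost without IgG replicate 1 (adjusted p = 0.113) and without anti-IL-35 replicate 3 (adjusted p = 0.0558). Tigit was 21.3 ± 1.02 CPM with anti-IL-35 and 27.2 ± 1.92 CPM with IgG, at -0.35 ± 0.12 (adjusted p = 0.0266), and lost its call without any 1 of 4 libraries (adjusted p = 0.0653 to 0.136), namely IgG replicates 1 and 3 and anti-IL-35 replicates 2 and 3. Havcr2 (TIM-3) and Ctla4 missed the test, at -0.27 ± 0.12 and -0.79 ± 0.44. T cells carry these checkpoints too, and the T cell marker sum was lower with anti-IL-35, whose part was not tested. On the higher side Entpd1 (CD39, which breaks down extracellular ATP) stood at 253, 237 and 276 CPM in the anti-IL-35 libraries, against 129, 129 and 132 CPM in the IgG libraries. It differed by 0.98 ± 0.05 (adjusted p = 1.18e-20), with Pilra and Cd300a, inhibitory receptors of myeloid cells, at 0.84 ± 0.06 and 0.47 ± 0.05. The part of the neutrophil rise in Entpd1, Pilra and Cd300a was not tested. Of 23 inhibitory receptors and checkpoints 3 were higher and 4 lower in all, against 15.7% and 9.32% of all genes, the lower count being 1 without IgG replicate 1 or anti-IL-35 replicate 3, 2 without IgG replicate 3 and 9 with library totals alone.

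**Figure D3:**
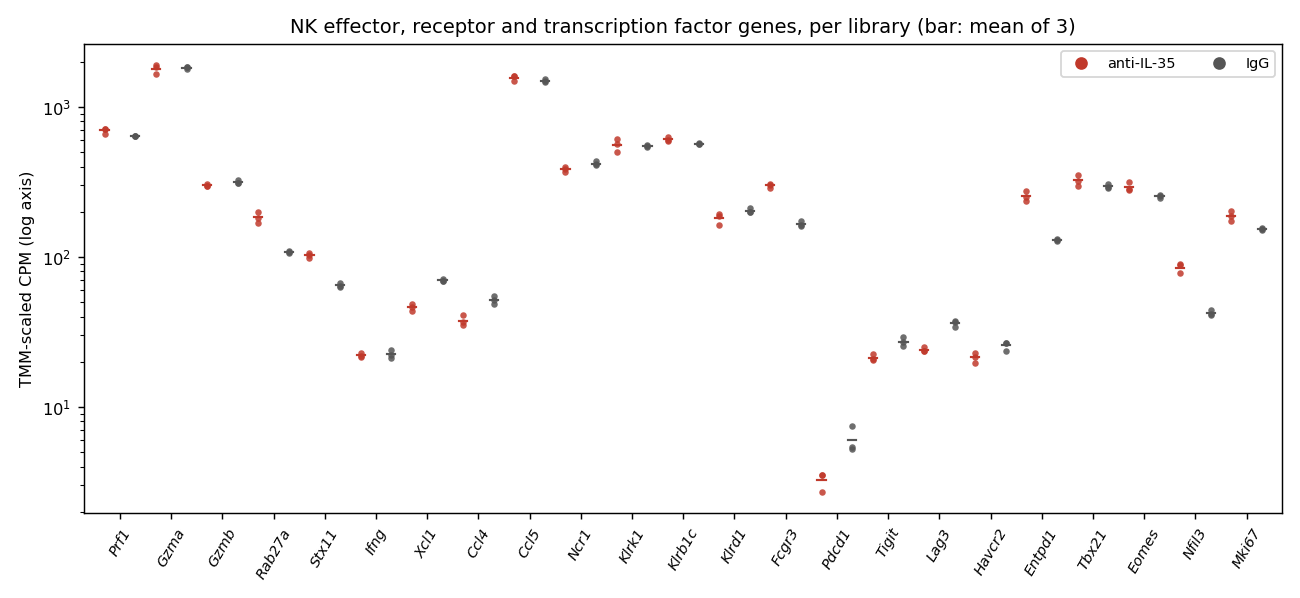
TMM-scaled CPM (log axis) of NK effector, receptor, checkpoint and transcription factor genes in each anti-IL-35 library (left of each pair) and each IgG library (right), with a bar at the mean of 3. Points of Gzma, Ifng and Klrk1 overlap, Rab27a, Stx11, Fcgr3, Entpd1 and Nfil3 are higher in every anti-IL-35 library, and Xcl1, Ccl4, Pdcd1, Tigit and Lag3 are lower.

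Among transcription factors of NK identity and development, Tbx21 was not called, Eomes was slightly higher and Nfil3 rose. Tbx21 (T-bet) stood at 299, 322 and 351 CPM in the anti-IL-35 libraries, against 292, 289 and 308 CPM in the IgG libraries. The groups overlapped at a difference of 0.13 ± 0.05. Eomes (Eomesodermin) was 293 ± 20.01 CPM with anti-IL-35 and 255 ± 5.91 CPM with IgG, called higher at 0.20 ± 0.05 (adjusted p = 0.00173) but not with library totals alone (adjusted p = 0.285). Nfil3, a factor required for NK development that is also induced in myeloid cells, stood at 77.6, 89.02 and 88.2 CPM in the anti-IL-35 libraries, against 44.4, 41.3 and 41.2 CPM in the IgG libraries. It differed by 1.01 ± 0.08 (adjusted p = 1.28e-14). Klf2, a quiescence and trafficking factor, differed by 0.63 ± 0.05 and Itgam (CD11b, on mature NK cells and neutrophils) by 0.63 ± 0.04. Irf8, a factor of NK, B and dendritic cells, fell by 0.26 ± 0.04. Altogether 7 of 25 maturation and transcription factor genes were higher and 3 lower, against 15.7% and 9.32% of all genes. The lower count was 5 without anti-IL-35 replicate 1 or 3 and 10 with library totals alone.

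Tissue residency genes leaned lower. Of 17 genes listed for tissue residency and type 1 innate lymphoid cells, 6 were called lower and 1 higher (all genes: 9.32% and 15.7%). The median was -0.11. Tmem176b, an ion channel of innate lymphoid and dendritic cells, stood at 59.2, 69.3 and 53.9 CPM in the anti-IL-35 libraries, against 88.4, 94.04 and 88.1 CPM in the IgG libraries. It differed by -0.57 ± 0.08 (adjusted p = 6.11e-08), its neighbour Tmem176a by -0.61 ± 0.11 and Inpp4b, a lipid phosphatase, by -0.65 ± 0.15. The member that rose was Rgs2, a regulator of G protein signalling, at 0.75 ± 0.06. The integrins Itga1 (CD49a) and Itgae (CD103), picked after their values were seen, had 14.2 against 14.9 CPM and 19.2 against 20.9 CPM and were not called. Dendritic cell markers were lower as well, and their part was not tested.

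Receptors for the cytokines that sustain NK cells showed small differences. Il2rb, the shared IL-2 and IL-15 receptor chain, stood at 1422, 1400.4 and 1509 CPM in the anti-IL-35 libraries, against 1362, 1346 and 1361 CPM in the IgG libraries. Neither it nor the common chain Il2rg was called, at 0.09 ± 0.04 and -0.11 ± 0.05. Il2ra, the high-affinity IL-2 chain, was 6.83 ± 1.29 CPM with anti-IL-35 and 10.8 ± 0.468 CPM with IgG, lower at -0.66 ± 0.19 (adjusted p = 0.00684), a call lost without anti-IL-35 replicate 3 (adjusted p = 0.0619). Il21r fell by 0.59 ± 0.08, and Il18rap, the signalling chain for IL-18, rose by 0.33 ± 0.05. The largest rise was in Il4ra, at 358, 391 and 411 CPM in the anti-IL-35 libraries, against 206, 209.6 and 201 CPM in the IgG libraries. Its difference was 0.91 ± 0.05 (adjusted p = 1.37e-20), and Ifngr2, the signalling chain for interferon-γ, differed by 0.62 ± 0.07. The part of the neutrophil rise in Il4ra and Ifngr2 was not tested. In all 6 of 15 were higher and 2 lower (all genes: 15.7% and 9.32%), with 3 higher without anti-IL-35 replicate 1 and with library totals alone.

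Homing receptors included the neutrophil receptors and rose in 10 of 20 cases (all genes: 15.7%). Cxcr2, the neutrophil receptor for CXC chemokines, stood at 544, 559 and 509.5 CPM in the anti-IL-35 libraries, against 114, 119 and 113 CPM in the IgG libraries. Ccr1, a receptor for Ccl3 and Ccl5 on myeloid cells, stood at 243, 218 and 216 CPM in the anti-IL-35 libraries, against 68.8, 68.2 and 72.5 CPM in the IgG libraries. These were differences of 2.22 ± 0.05 (adjusted p = 4.25e-36) and 1.69 ± 0.06 (adjusted p = 4.09e-28). Cd44, a hyaluronan receptor, and Cxcr4, the bone marrow homing receptor, differed by 0.87 ± 0.04 and 0.87 ± 0.05, and Selplg (the P-selectin ligand) by 0.69 ± 0.04. Cx3cr1, a receptor that NK cells use to enter tumours, was not called, at -0.16 ± 0.06. Several other settings called it lower, among them DESeq2 (adjusted p = 0.045) and edgeR on only the 6 libraries compared (adjusted p = 0.0459). In all 4 members were lower (all genes: 9.32%), 6 without anti-IL-35 replicate 1 and 8 with library totals alone.

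Type I interferon-stimulated genes were higher in part and not as a whole. Of 41 genes 17 were called higher and 6 lower, against 15.7% and 9.32% of all genes, and the median difference was 0.11. Ifitm1, a membrane protein that blocks virus entry, stood at 542, 601 and 562 CPM in the anti-IL-35 libraries, against 142, 128 and 136 CPM in the IgG libraries. Oas3, which senses double-stranded RNA, stood at 171, 158 and 177 CPM in the anti-IL-35 libraries, against 72.3, 69.6 and 71.2 CPM in the IgG libraries. The groups were far apart in both, at 2.07 ± 0.05 (adjusted p = 1.77e-33) and 1.25 ± 0.06 (adjusted p = 7.90e-22). Ifitm1 averaged 568 CPM with anti-IL-35, 457 CPM with the combination, 234 CPM with cGAMP and 135 CPM with IgG, and the neutrophil marker sum ran in the same order, at 24130.0 CPM with anti-IL-35, 21900.0 CPM with the combination, 12950.0 CPM with cGAMP and 5715 CPM with IgG. The part of neutrophil RNA in these rises was not tested. Oasl2, Ifitm2 and Oas2 followed with 1.86 ± 0.05, 1.29 ± 0.05 and 1.27 ± 0.10. Isg15, a ubiquitin-like protein and one of the most widely used markers of the response, had 19.2, 19.7 and 20.7 CPM with anti-IL-35, against 17.3, 15.8 and 14.7 CPM with IgG. This difference of 0.32 ± 0.14 missed the test (adjusted p = 0.0805), as did Mx1 at -0.41 ± 0.16 and Ifit3b at 0.55 ± 0.24. Ifit3 and Ifit3b are near-identical copies and may share reads, so their individual values are uncertain. The lower count was 3 without IgG replicate 1 or 2 and 2 without IgG replicate 3 or anti-IL-35 replicate 3. With cGAMP or the combination as the comparison group, both of which share the anti-IL-35 libraries with this one, 8 of the 41 were higher with anti-IL-35 against all 3 other groups and 0 lower (all genes: 1.18% and 2.12%).

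Promoters of the genes that were called and of those that were not are shown beside each other, as the 250 bases before the RefSeq start on the gene's strand (GRCm38.p6). The interferon-stimulated response element was searched as GAAANN followed directly by GAAA (N is any base) on both strands, and a match on the other strand reads TTTCNN followed directly by TTTC. Capitals mark matches.
Ifitm1, called higher, chr7:140967826-140968075, plus strand: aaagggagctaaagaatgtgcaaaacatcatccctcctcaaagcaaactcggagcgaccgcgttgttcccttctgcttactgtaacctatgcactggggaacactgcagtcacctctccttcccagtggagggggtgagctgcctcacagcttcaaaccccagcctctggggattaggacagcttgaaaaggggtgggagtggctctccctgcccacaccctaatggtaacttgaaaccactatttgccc
Oasl2, called higher, chr5:114896684-114896933, plus strand: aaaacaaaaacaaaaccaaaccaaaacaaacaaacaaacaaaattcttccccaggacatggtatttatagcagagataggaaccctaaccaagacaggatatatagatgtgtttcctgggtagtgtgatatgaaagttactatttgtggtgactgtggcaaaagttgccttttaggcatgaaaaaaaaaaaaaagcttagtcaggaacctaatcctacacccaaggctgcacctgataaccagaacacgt
Oas3, called higher, chr5:120777660-120777909, minus strand: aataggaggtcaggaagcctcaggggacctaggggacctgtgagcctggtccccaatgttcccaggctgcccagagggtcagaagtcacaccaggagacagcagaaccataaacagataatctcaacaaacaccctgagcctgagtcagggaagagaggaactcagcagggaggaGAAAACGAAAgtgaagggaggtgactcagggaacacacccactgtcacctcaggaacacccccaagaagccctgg
Ifitm2, called higher, chr7:140955962-140956211, minus strand: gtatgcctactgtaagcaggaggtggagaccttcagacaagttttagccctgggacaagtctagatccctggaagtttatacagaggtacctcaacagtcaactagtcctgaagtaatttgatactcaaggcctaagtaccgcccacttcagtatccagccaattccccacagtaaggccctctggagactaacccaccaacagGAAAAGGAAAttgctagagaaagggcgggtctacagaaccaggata
Isg15, not called, chr4:156200819-156201068, minus strand: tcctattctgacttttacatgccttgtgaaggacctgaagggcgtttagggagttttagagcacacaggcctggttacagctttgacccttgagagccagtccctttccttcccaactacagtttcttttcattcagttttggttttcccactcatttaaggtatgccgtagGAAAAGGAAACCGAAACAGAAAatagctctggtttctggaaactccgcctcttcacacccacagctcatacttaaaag
Ifit3b, not called, chr19:34607707-34607956, plus strand: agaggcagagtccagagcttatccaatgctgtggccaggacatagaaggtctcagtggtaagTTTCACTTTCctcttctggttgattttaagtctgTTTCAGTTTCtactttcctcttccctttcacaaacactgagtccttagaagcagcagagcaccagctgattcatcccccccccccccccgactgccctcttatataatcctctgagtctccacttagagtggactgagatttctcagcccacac
Isg15 held 3 overlapping matches, at 78, 72 and 66 bases before the start, and Ifit3b held 2. Oas3 held 1 match 75 bases before the start and Ifitm2 held 1 at 46 bases. The windows of Ifitm1 and Oasl2, which had the largest differences of the list, held no match to these letters. Among list members with a RefSeq promoter, 6 of 15 called higher (40.0%) and 7 of 12 not called (58.3%) held a match, against 3.04% of 27025 promoters in the table and 2.82% of 10662 promoters of tested genes. A match describes letters and is no evidence of binding.

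Interferon-γ response and antigen presentation genes leaned lower. Of 32 genes 4 were called higher and 11 lower, against 15.7% and 9.32% of all genes, with a median of -0.11. Ciita, the master regulator of class II genes, stood at 83.95, 95.7 and 120.2 CPM in the anti-IL-35 libraries, against 149, 156 and 149 CPM in the IgG libraries. It fell by 0.60 ± 0.08 (adjusted p = 5.10e-07). B cell markers (20 of 21 lower) and dendritic cell and class II genes (12 of 20 lower) fell with it, and their part was not tested. Gbp2, a guanylate-binding protein, rose by 0.49 ± 0.06 and Irf1 by 0.36 ± 0.05. The class I chain H2-D1 rose by 0.23 ± 0.04 (adjusted p = 4.70e-07), whereas H2-K1 differed by -0.09 ± 0.03 and was not called. Several other settings did call H2-K1 lower, among them RLE size factors (adjusted p = 0.0463) and leaving out anti-IL-35 replicate 3 (adjusted p = 0.00068). These class I genes are near-identical in long stretches, and their individual values are uncertain. With library totals alone 21 members were lower and with scaling on 9 NK receptor transcripts 7. Of 12 STING pathway genes tested 1 was called higher and 1 lower, against 15.7% and 9.32% of all genes. Samhd1, a nucleotide phosphohydrolase, differed by 0.19 ± 0.04 and Tmem173 (STING) by -0.22 ± 0.07. The Tmem173 call was lost without IgG replicate 1 (adjusted p = 0.158) and without anti-IL-35 replicate 3 (adjusted p = 0.0839), and the Samhd1 call with library totals alone (adjusted p = 0.202).

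Immediate-early genes, which answer cell activation and also tissue handling, rose in 15 of 25 cases and fell in 4, against 15.7% and 9.32% of all genes. Dusp1, a phosphatase that shuts off MAP kinases, stood at 531, 521 and 522 CPM in the anti-IL-35 libraries, against 109, 114 and 112 CPM in the IgG libraries. Fos, a subunit of the AP-1 factor, stood at 478, 471 and 465 CPM in the anti-IL-35 libraries, against 153, 153 and 151 CPM in the IgG libraries. Both sets of libraries lay far apart, at 2.23 ± 0.05 (adjusted p = 1.88e-37) and 1.63 ± 0.05 (adjusted p = 5.83e-32). The further AP-1 subunits Junb and Fosl2 differed by 1.47 ± 0.04 and 1.50 ± 0.05, and Zfp36, which destabilises cytokine transcripts, by 1.40 ± 0.04. The Nr4a genes respond to antigen receptor signals in lymphocytes. Nr4a1 had 101 against 112 CPM and Nr4a3 14.8 against 18.6 CPM, and neither was called. The 4 members called lower were Egr2 (-0.67), Dusp2 (-0.21), Klf4 (-0.33) and Myc (-0.47), named after their values were seen, and 2 were lower without IgG replicate 1. Against all 3 other groups 8 members were higher and 0 lower, with 1.18% and 2.12% of all genes. Dusp1 averaged 525 CPM with anti-IL-35, 492 CPM with the combination, 227 CPM with cGAMP and 112 CPM with IgG, in the group order of the neutrophil marker sum given for the interferon-stimulated genes, and the part of neutrophil RNA in the list was not tested.

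NF-κB subunits and targets were called in both directions, 8 of 21 higher and 7 lower, against 15.7% and 9.32% of all genes. Il1b (interleukin 1β) stood at 1043, 983 and 911 CPM in the anti-IL-35 libraries, against 218, 213 and 212 CPM in the IgG libraries. Ptgs2 (cyclooxygenase 2, which makes prostaglandins) stood at 16.7, 16.02 and 15.4 CPM in the anti-IL-35 libraries, against 5.39, 5.25 and 4.17 CPM in the IgG libraries. These were differences of 2.19 ± 0.04 (adjusted p = 8.83e-38) and 1.70 ± 0.20 (adjusted p = 6.15e-10), with Tnfaip2 at 1.59 ± 0.05. The subunits Nfkb2 and Rel were not called, at -0.05 ± 0.06 and -0.22 ± 0.11, and Cd83, a maturation marker of dendritic and B cells, fell by 0.64 ± 0.09. Neutrophils are a known source of Il1b and Ptgs2 transcripts, and the part of the neutrophil rise was not tested.

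Heat-shock and unfolded protein response genes were called in both directions, 10 of 25 higher and 7 lower, against 15.7% and 9.32% of all genes. The cytosolic chaperones Hsph1, Hspa1b, Dnaja1 and Hspa8 differed by 0.52 ± 0.05, 0.36 ± 0.04, 0.33 ± 0.05 and 0.24 ± 0.03. Pdia4, a disulfide isomerase of the endoplasmic reticulum that is abundant in antibody-secreting cells, stood at 167, 159.5 and 164 CPM in the anti-IL-35 libraries, against 203, 212 and 223 CPM in the IgG libraries. Its difference was -0.38 ± 0.05 (adjusted p = 2.30e-08), and 7 members were lower against all 3 other groups (all genes: 2.12%).

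Glycolysis was the metabolic list that moved with TMM scaling. Of 21 genes 16 were called higher and 0 lower, against 15.7% and 9.32% of all genes, with a median of 0.42. Slc16a3, the lactate exporter, stood at 240.2, 258 and 279 CPM in the anti-IL-35 libraries, against 72.5, 75.2 and 75.98 CPM in the IgG libraries. Slc2a3, a glucose transporter, stood at 263, 278 and 276 CPM in the anti-IL-35 libraries, against 115, 112 and 117 CPM in the IgG libraries. Neither pair of groups overlapped, and the differences were 1.80 ± 0.06 (adjusted p = 5.19e-30) and 1.25 ± 0.05 (adjusted p = 7.45e-26). Pfkfb4, which sets the rate of glycolysis, differed by 1.48 ± 0.06, the myeloid hexokinase Hk3 by 1.31 ± 0.06 and the pyruvate kinase Pkm by 0.71 ± 0.04. The lactate importer Slc16a1 and the platelet-type phosphofructokinase Pfkp were not called, at -0.11 ± 0.14 and -0.04 ± 0.05. Hk3 and Slc2a3 are prominent in neutrophils, and the part of the neutrophil rise in the list was not tested. By contrast 0 of 27 oxidative phosphorylation genes were called higher and 1 lower (all genes: 15.7% and 9.32%). The lower one was the electron carrier Cycs at -0.21 ± 0.08 (adjusted p = 0.0355). That call was lost without IgG replicate 2 or 3 and without anti-IL-35 replicate 3 (adjusted p = 0.0832 to 0.185). With library totals alone 15 oxidative phosphorylation genes were called lower and 0 higher, against 1 and 15 glycolysis genes (all genes: 3125 and 1472 of 14182).

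The count of higher cell cycle genes depended on single libraries. Of 32 genes 10 were called higher and 1 lower (31.2% and 3.12%, against 15.7% and 9.32% of all genes), at a median of 0.15, and the higher count was 5 to 7 without any 1 library and 2 with library totals alone. Mki67 (Ki-67, present in all dividing cells) stood at 187, 172 and 201 CPM in the anti-IL-35 libraries, against 155, 154 and 150.3 CPM in the IgG libraries. The groups did not overlap, at 0.29 ± 0.06 (adjusted p = 3.89e-05). Hmgb2, a chromatin protein of dividing and of myeloid cells, differed by 0.62 ± 0.05 and the mitotic kinase Cdk1 by 0.46 ± 0.14. Ccnb2 (cyclin B2) was called at 0.42 ± 0.13, but not without IgG replicate 2 (adjusted p = 0.0634). Cdc20, an activator of mitotic exit, was called at 0.39 ± 0.13, but not without IgG replicate 2 (adjusted p = 0.0884) or anti-IL-35 replicate 3 (adjusted p = 0.0880). The replication and mitosis genes Mcm6, Rrm2 and Plk1 missed the test, at 0.13 ± 0.06, 0.21 ± 0.09 and 0.25 ± 0.13.

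Ribosomal protein genes were lower. Of 83 cytosolic members 54 were called lower and 0 higher (all genes: 9.32% and 15.7%), with a median of -0.20. The lower count was 73 with library totals alone and 27 with scaling on NK receptor transcripts, and in none of the settings was a member called higher. Eef1a1, which brings tRNA to the ribosome, was 5660.3 ± 104 CPM with anti-IL-35 and 6053 ± 59.7 CPM with IgG, a difference of -0.10 ± 0.03 (adjusted p = 0.00939), and its call was lost without IgG replicate 3 (adjusted p = 0.0551). Of 15 tested genes of the mitochondrial genome 3 were called higher and 2 lower, against 15.7% and 9.32% of all genes. The lower count was 0 without IgG replicate 1, IgG replicate 2 or anti-IL-35 replicate 3, and 1 without anti-IL-35 replicate 1.

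**Figure D4:**
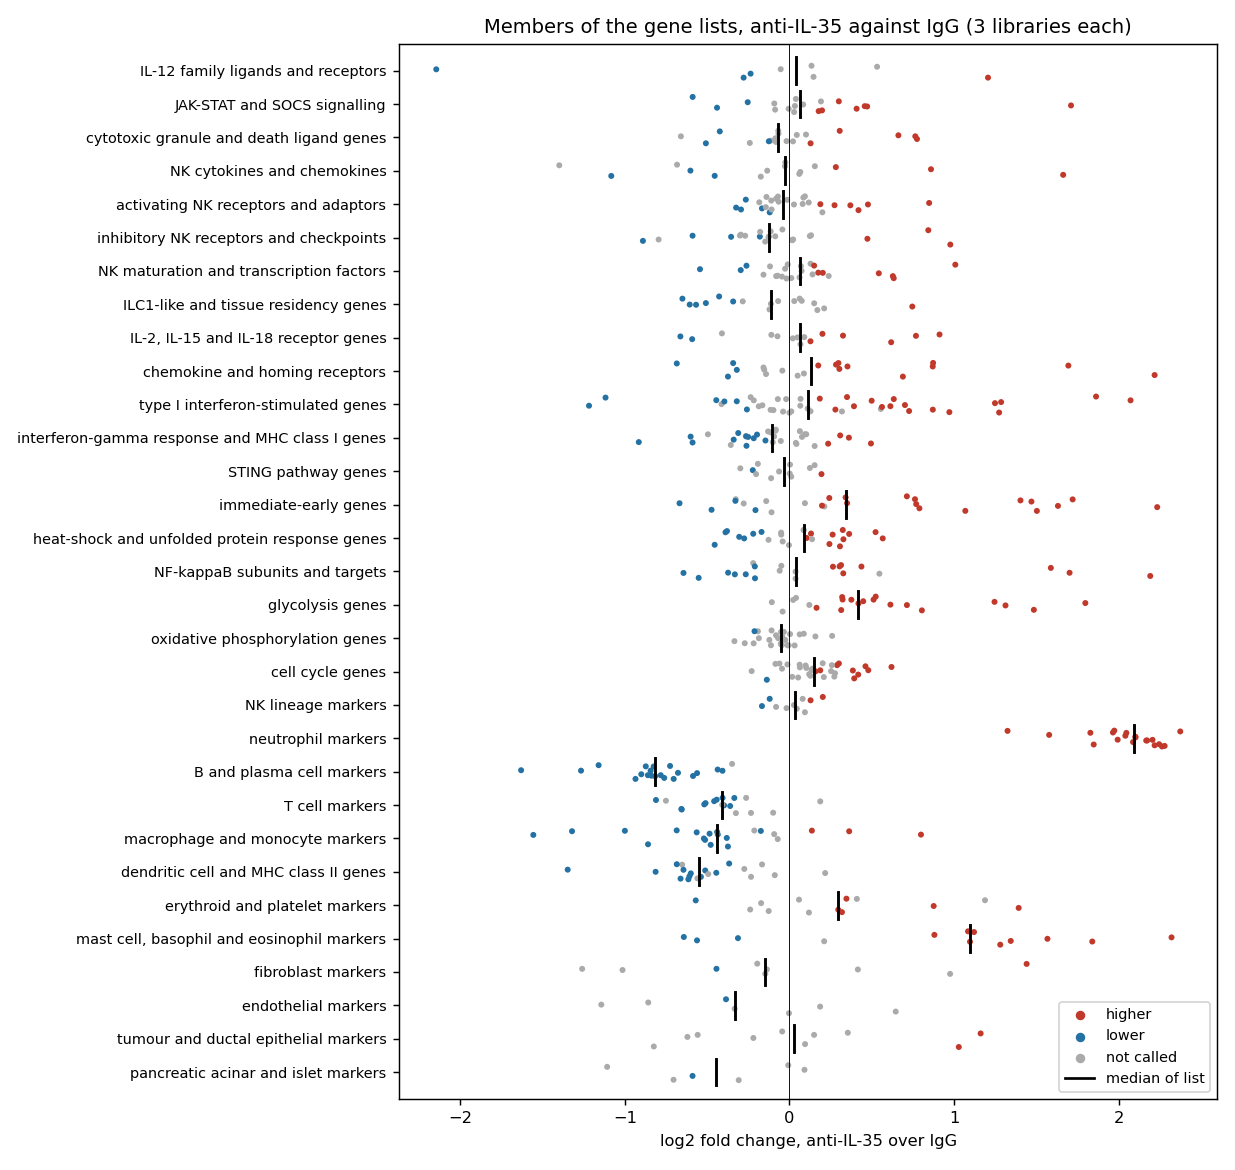
Log2 fold change of anti-IL-35 over IgG for every tested member of 31 gene lists, 1 point per gene, coloured by call, with a black line at the list's median (vertical scatter within a row carries no value). Neutrophil members all lie between 1.32 and 2.37, B cell members all lie below 0, and most NK receptor and cytotoxic members lie near 0.

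The largest rises outside immunoglobulin segments were mostly secreted or myeloid genes. Prok2, a chemokine-like peptide, stood at 14.8, 17.1 and 12.04 CPM in the anti-IL-35 libraries, against 1.43, 1.18 and 2.34 CPM in the IgG libraries. Lipg, a secreted lipase, stood at 45.6, 37.7 and 37.4 CPM in the anti-IL-35 libraries, against 7.66, 6.14 and 6.46 CPM in the IgG libraries. Their differences were 3.14 ± 0.27 (adjusted p = 1.42e-13) and 2.58 ± 0.15 (adjusted p = 5.09e-20). Chil1, a chitinase-like glycoprotein, stood at 305, 313 and 317 CPM in the anti-IL-35 libraries, against 58.4, 57.1 and 52.9 CPM in the IgG libraries. It differed by 2.47 ± 0.06 (adjusted p = 2.23e-35). Scrg1 and Ccdc80, which encode secreted proteins, differed by 3.02 ± 0.44 and 2.42 ± 0.23, Cxcr1, a neutrophil chemokine receptor, by 2.55 ± 0.22, and Nlrp12, a sensor of myeloid cells, by 2.41 ± 0.07. Chac1, which breaks down glutathione, differed by 2.37 ± 0.26, Lrg1, a granule glycoprotein, by 2.36 ± 0.05, the granule protease gene Prss57 by 2.32 ± 0.29 and the mitochondrial arginase gene Arg2 by 2.32 ± 0.11. Arg2 rose while Arg1, given above, fell. By gain in CPM the leaders were S100a9, Ngp, S100a8, Ltf, Actb, Csf3r, Lcn2 and Mmp9, of which only Actb (actin, 7829 against 6036 CPM) is no neutrophil marker.

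The largest falls joined immunoglobulin genes with low-abundance genes. Ighg3, the constant region of IgG3, stood at 55.7, 60.3 and 54.6 CPM in the anti-IL-35 libraries, against 271, 261 and 254 CPM in the IgG libraries. Ighm, that of IgM, stood at 2478, 2447 and 2514 CPM in the anti-IL-35 libraries, against 7669.7, 7611 and 7739 CPM in the IgG libraries. The falls were -2.20 ± 0.05 (adjusted p = 6.28e-35) and -1.63 ± 0.03 (adjusted p = 4.35e-41). Pla2g2d, a secreted phospholipase of dendritic cells and macrophages, had 2.38, 2.85 and 2.804 CPM with anti-IL-35, against 7.86, 7.91 and 6.69 CPM with IgG. Cd209a, a lectin of dendritic cells and monocytes, had 9.11, 7.21 and 4.15 CPM with anti-IL-35, against 16.8, 18.1 and 17.2 CPM with IgG. They differed by -1.48 ± 0.24 and -1.35 ± 0.21. The orphan receptor gene Mrgpre (1.698 against 5.63 CPM), the adhesion gene Ctnnd2 (1.91 against 5.91 CPM), the sulfotransferase gene Chst1 (3.29 against 9.21 CPM), the RNase gene Zc3h12c (2.67 against 7.49 CPM), the adenylyl cyclase gene Adcy6 (2.48 against 6.83 CPM), the scaffold gene Ppfia4 (8.12 against 20.8 CPM) and the membrane glycoprotein gene Gpm6b (2.29 against 5.85 CPM) fell by 1.35 to 1.72 on the log2 scale. The largest losses in CPM were those of Ighm, Igkc, Cd74, Jchain, Psap, H2-Ab1, Eef1a1 and Ighg2b.

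Immunoglobulin classes did not fall alike. Of 12 constant region genes, a family described after its values were seen, 9 were called lower and 3 higher (all genes: 9.32% and 15.7%). Igha, the class of mucosal antibody, stood at 2940.0, 3068 and 2948 CPM in the anti-IL-35 libraries, against 2272, 2303 and 2397 CPM in the IgG libraries. Every anti-IL-35 library was higher, by 0.36 ± 0.03 (adjusted p = 6.99e-13). Ighe and Ighg1 were called higher too, at 1.24 ± 0.36 and 0.27 ± 0.06. Ighe was low and its libraries overlapped, at 2.17, 4.87 and 3.53 CPM with anti-IL-35, against 0.714, 2.24 and 1.49 CPM with IgG. The number of higher calls was 2 without IgG replicate 1 or without anti-IL-35 replicate 2. The difference reached -1.29 ± 0.04 for Ighg2b, and for Igkc, the constant region of most light chains, it was -0.82 ± 0.03. Of 193 tested V segments, the variable parts of antibody genes, 129 were called lower and 19 higher (all genes: 9.32% and 15.7%). Reads from near-identical V segments may be divided between them, so single segments are uncertain.

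The same anti-IL-35 libraries were also set against the other treated groups. Against cGAMP 1626 genes were called higher (11.5%) and 1207 lower (8.51%), and against the combination 308 higher (2.17%) and 521 lower (3.67%). Together 168 genes were higher with anti-IL-35 than in each of the combination, cGAMP and IgG groups (1.18% of tested genes) and 301 were lower (2.12%). B and plasma cell genes took part in this: 17 of 21 markers and 86 of 193 V segments were lower against all 3 groups. Ighm averaged 2479.7 CPM with anti-IL-35, 8753 CPM with the combination, 8682 CPM with cGAMP and 7673 CPM with IgG. Igha averaged 2985 CPM with anti-IL-35, 1645 CPM with the combination, 1192 CPM with cGAMP and 2324 CPM with IgG, and was higher against all 3. Log2 differences of Igha were 1.32 ± 0.03 against cGAMP and 0.86 ± 0.03 against the combination.

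Among genes outside the antibody loci that stood apart from all 3 groups, Ctse, an endosomal protease, averaged 183 CPM with anti-IL-35, 47.4 CPM with the combination, 45.9 CPM with cGAMP and 82.7 CPM with IgG. Prok2 averaged 14.6 CPM with anti-IL-35, 6.17 CPM with the combination, 3.12 CPM with cGAMP and 1.65 CPM with IgG. For Ctse the anti-IL-35 level was the highest of 4 groups and the cGAMP and combination levels were below IgG, whereas Prok2 was lowest with IgG. Chil1 averaged 312 CPM with anti-IL-35, 161 CPM with the combination, 85.7 CPM with cGAMP and 56.2 CPM with IgG. Ggt1, which cleaves extracellular glutathione, Cyb5r1, a reductase, and Entpd3, an ATP-degrading enzyme, were also higher against all 3, with differences from IgG of 1.52 ± 0.32, 1.17 ± 0.10 and 2.14 ± 0.11. On the lower side S1pr3, a sphingosine phosphate receptor, averaged 5.21 CPM with anti-IL-35, 11.7 CPM with the combination, 13.6 CPM with cGAMP and 12.2 CPM with IgG. Chst1, Mrgpre and Ppfia4 stood apart in the same way, as did Adgrl2 and Lynx1, at -1.26 ± 0.28 and -1.11 ± 0.19 against IgG. Among the NK lineage markers 0 of 10 were called against all 3 groups in either direction (all genes: 1.18% higher and 2.12% lower).

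**Figure D5:**
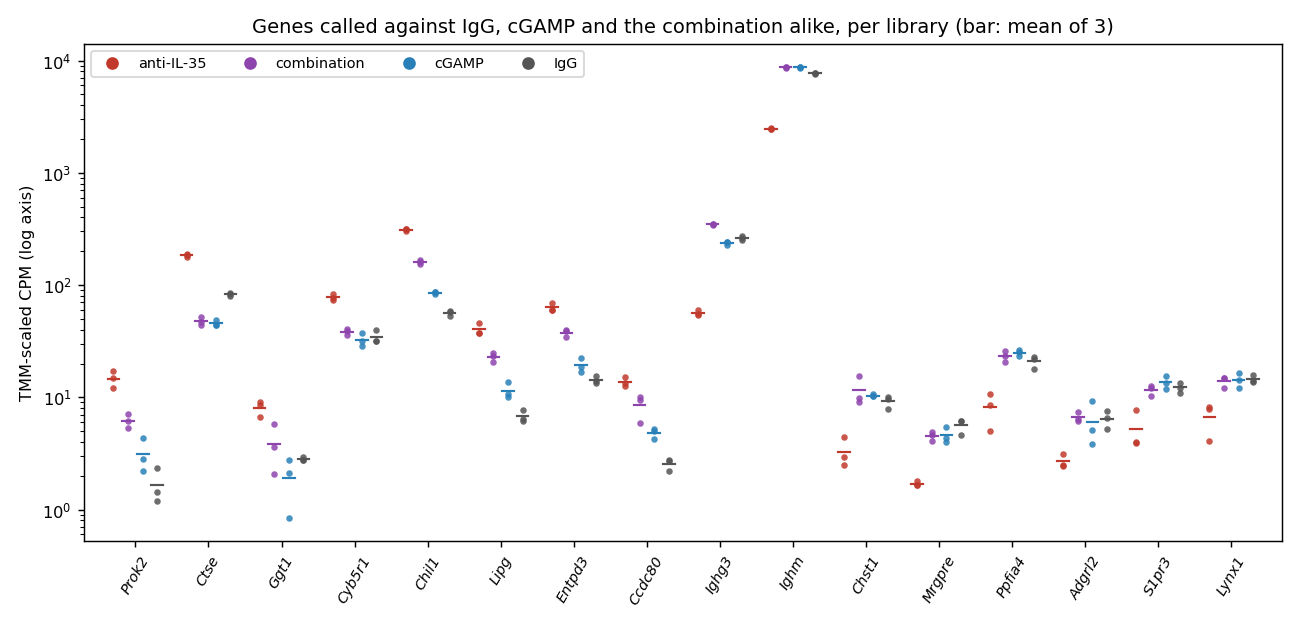
TMM-scaled CPM (log axis) in each library of the anti-IL-35, combination, cGAMP and IgG groups (left to right for each gene, bar at the mean of 3) for the 8 higher and 8 lower genes furthest apart from all 3 other groups. Anti-IL-35 points lie above all others for Prok2 to Ccdc80 and below all others for Ighg3 to Lynx1.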

How the data were processed

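RNA from sorted tumour NK cells (1 µg per library) was sequenced in 12 libraries, 3 per group, each mapped to its group by its label. The authors deposited a table of raw counts, reads assigned to each gene. The submitters' processing notes name STAR 2.7.7a, SAMtools 1.15, featureCounts and build mm10. Annotation, strand setting and handling of reads with several positions are not given in the sources used here, so antisense and near-identical genes may share counts. The table held 27179 Entrez gene IDs, of which 1049 had no symbol (0.251% of counts) and 25275 had coordinates in RefSeq annotation of GRCm38.p6.

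The model was fitted with edgeR 4.0.16 (R 4.3.3): filterByExpr with a minimum count of 10, TMM scaling, and a robust quasi-likelihood fit of all 12 libraries with 1 mean per group and 8 residual degrees of freedom. Adjusted p-values are from the edgeR quasi-likelihood test, adjusted by Benjamini-Hochberg over 14182 genes, with a threshold of 0.05. SD and n refer to the 3 libraries of a group. Library pairs differed beyond counting noise, with a chi-square divided by its degrees of freedom of 5.63 to 11.8 within anti-IL-35 and 3.27 to 3.68 within IgG, and each was counted once. On simulated counts with 200 of 14182 genes changed, 72% of 2-fold and 44% of 1.3-fold changes between anti-IL-35 and IgG were recovered. Of the simulated calls 4.13% were false. The data gave calls for 25.0% of genes, a far larger share than was changed there, so these rates need not hold for the data.

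The members and the 31 gene lists were chosen with earlier results of these data known, and lists are described by counts and medians with no set test. Named genes were all IL-12 family members, the 12 largest called changes in each direction (at least 5 CPM, no overlap, immunoglobulin segments and ribosomal, mitochondrial and locus-named genes passed over), the 8 largest CPM gains and losses, up to 5 called and 3 uncalled members per list, and 20 set genes; some of these are not reported here. Genes that stood apart were the 8 per direction with the largest smallest difference from the 3 other groups. Promoters came from RefSeq (GRCm38.p6). Alternatives were RLE size factors, library totals alone, scaling on 9 NK receptor transcripts, no filter, at least 1 CPM in 6 libraries, a replicate block, only the 6 libraries, leaving out 218 immunoglobulin and 154 other-cell genes, leaving out each library, and DESeq2 1.42.0.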

Additional observations from a re-analysis of the deposited data

How the results depend on the processing

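Library totals alone gave 1472 genes higher and 3125 lower with anti-IL-35 against IgG (32.0% of calls higher, against 62.7% with TMM). Scaling on 9 NK receptor transcripts gave 2032 higher and 964 lower and raised the genes called against the combination to 3063, against 829; leaving out immunoglobulin and other-cell-list genes gave 523. The cause was not tested. Prf1 lost its call with library totals alone, at a difference of -0.0016 (adjusted p = 0.982). Leaving out 1 library at a time gave 1888 to 2034 higher and 976 to 1459 lower, and the other settings stayed within 1.5 times the counts of 2220 and 1322. Same-numbered libraries did not deviate together (r of -0.006 to 0.0135), and a replicate block gave 2158 higher and 1303 lower, ending the Ncr1 call (adjusted p = 0.0634) and adding Foxp3 (adjusted p = 0.0382). Of 160 called named genes 17 lost the call under at least 1 setting, 14 of them by leaving out 1 library, and 53 others gained one. With 3 libraries a group, changes of 1.3-fold were often missed in the simulation, and the rate in the data is not known.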
